A study of Mus musculus with 8 samples.

Results

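The Ly6/uPAR family comprises small, cysteine-rich proteins that are either tethered to the outer face of the plasma membrane by a lipid anchor or secreted. The 10 genes described here are members of this family: Lypd2, Lypd3, Lypd5, Slurp1, Ly6d, Ly6g6c and Psca, which are known mainly from epithelia, and Ly6a, Ly6c1 and Ly6e, which are usually read as genes of stromal, vascular and immune cells. The family was picked because Lypd2 rose strongly in mutant endometrium in the comparison reported below. The members were found by symbol among the 52325 rows of the count table, and all 10 were present. Of these, 9 passed the filter on low counts, and Lypd5 did not.

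RNA was sequenced from endometrium cut by laser from frozen sections of the uterus of female mice, all synchronized at metestrus. The 4 mutant libraries came from Thra1PV/+ mice, in which 1 Thra allele has the PV mutation, so that they express a dominant negative TRα1 in every tissue that uses the gene. The 4 control libraries came from WT mice. Both genotypes were brought into phase by housing in cages soiled by males, and the mutants keep 1 normal Thra allele. The age of these mice is not given, and the cut fields hold epithelium, stroma, vessels and immune cells together. In such bulk tissue, fewer cells of a type and less RNA per cell cannot be told apart. The deposited gene counts do not separate the mutant from the normal Thra allele, so they cannot check the genotype.

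Members of this family share a 3-finger fold held by disulfide bonds. LYPD3 (C4.4A) and LY6D sit on the surface of stratified squamous epithelium, SLURP1 is secreted by keratinocytes and modulates nicotinic acetylcholine receptors, and PSCA is an anchored protein of bladder, stomach and other epithelia. LY6A (Sca-1) is carried by many mouse stem, endothelial, stromal and activated immune cells, LY6C1 by endothelium and monocytes, and LY6E by many cell types after interferon. In the uterus the normal lining is a simple columnar epithelium, which does not keratinize.

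The coding sequences show the family signature. Their cysteine-rich stretches are given here for Lypd2, the gene for which the family was chosen, for its neighbour Slurp1, and for Ly6e, the member with the highest level. The stretches (codons 23 to 100 of Lypd2 and Slurp1 and 27 to 105 of Ly6e) are from GENCODE M21 transcripts, 5′ to 3′ from 2 codons before the first cysteine codon to 1 after the last, with in-frame cysteine codons (TGT or TGC) in capitals.
Lypd2: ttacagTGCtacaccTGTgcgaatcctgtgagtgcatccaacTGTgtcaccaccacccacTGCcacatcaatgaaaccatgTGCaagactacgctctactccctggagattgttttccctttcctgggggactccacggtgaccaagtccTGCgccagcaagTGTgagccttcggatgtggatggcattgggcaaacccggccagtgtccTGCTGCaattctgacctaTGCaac
Slurp1: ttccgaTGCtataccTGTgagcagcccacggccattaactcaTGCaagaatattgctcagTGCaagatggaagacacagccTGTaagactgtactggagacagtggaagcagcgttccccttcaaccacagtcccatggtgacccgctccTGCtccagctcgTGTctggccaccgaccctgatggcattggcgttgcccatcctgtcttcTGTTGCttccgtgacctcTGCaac
Ly6e: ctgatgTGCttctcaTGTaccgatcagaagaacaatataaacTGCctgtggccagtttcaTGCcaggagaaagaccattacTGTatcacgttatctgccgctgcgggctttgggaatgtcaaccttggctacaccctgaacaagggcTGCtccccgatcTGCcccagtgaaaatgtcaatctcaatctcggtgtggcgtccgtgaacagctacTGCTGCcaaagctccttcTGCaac
The coding region of Lypd2 (chr15:74732337-74734287, minus strand, 3 coding exons) has 10 cysteine codons among 127 codons, and that of Slurp1 (chr15:74726811-74727998, minus strand, 3 coding exons) has 10 among 110. The cysteine codons of both genes fall at the same codon numbers: 25, 28, 37, 43, 50, 73, 77, 93, 94 and 99. Ly6e (chr15:74957808-74958710, plus strand, 3 coding exons) also has 10, from codon 29 to codon 104. In all 10 members the last adjacent pair of cysteine codons is followed by another 5 codons later. Lypd3 has 19 cysteine codons among 363 and Lypd5 18 among 256, whereas the other 8 members have 10 to 12. These are codon counts and positions only.

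Sequence shared between family genes bears on how reads were assigned to them. None of the 31-base words of the Lypd2, Lypd3, Slurp1, Ly6d and Psca transcripts occurred in any other gene of the annotation. Of the words of Ly6g6c, 0.953% were shared, of Lypd5 1.55% and of Ly6e 0.422%. Ly6a shared 31.9% of its words, mostly with Ly6c1, and Ly6c1 shared 46.8%, mostly with Ly6c2. The longest run common to the coding sequences of Ly6c1 and Ly6c2 was 188 bases (coding bases 66 to 253 of Ly6c1, in exons 2 to 4, within chr15:75045545-75048446, minus strand), and that of Ly6a and Ly6i was 80 bases (coding bases 50 to 129 of Ly6a, in exons 2 to 3, within chr15:74996510-74997555, minus strand). They are shown because reads inside them could belong to either gene.
Ly6c1 and Ly6c2: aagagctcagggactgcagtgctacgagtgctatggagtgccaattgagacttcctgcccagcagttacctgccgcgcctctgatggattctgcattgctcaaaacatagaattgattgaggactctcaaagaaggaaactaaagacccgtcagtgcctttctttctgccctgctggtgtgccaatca
Ly6a and Ly6i: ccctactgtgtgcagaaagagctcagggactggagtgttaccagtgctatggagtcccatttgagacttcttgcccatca
Lypd2 and Slurp1, despite their equal cysteine spacing, shared no coding run longer than 11 bases. The values of Ly6a, Ly6c1, Ly6c2 and Ly6i are therefore less certain than those of the epithelial members.

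RefSeq promoter windows were matched by symbol for 4 of the 10 members, namely Lypd3, Lypd5, Ly6g6c and Ly6c1. The 250 bases before the gene start (GRCm38.p6) are printed for Lypd3 and Ly6g6c, as members that were high in mutant endometrium, and for the more distal start of Ly6c1, as a member that was not. Capitals mark matches, on either strand, to the motifs searched.
Lypd3 (chr7:24636320-24636569, plus strand): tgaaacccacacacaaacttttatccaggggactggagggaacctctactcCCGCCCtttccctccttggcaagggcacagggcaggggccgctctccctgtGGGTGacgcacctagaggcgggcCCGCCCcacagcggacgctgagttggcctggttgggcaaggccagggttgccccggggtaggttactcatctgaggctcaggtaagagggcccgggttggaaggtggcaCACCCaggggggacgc
Ly6g6c (chr17:35067075-35067324, plus strand): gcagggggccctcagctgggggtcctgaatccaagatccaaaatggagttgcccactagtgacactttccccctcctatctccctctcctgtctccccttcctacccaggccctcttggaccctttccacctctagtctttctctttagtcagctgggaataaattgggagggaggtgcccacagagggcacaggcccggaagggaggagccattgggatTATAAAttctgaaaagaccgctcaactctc
Ly6c1 (chr15:75048838-75049087, minus strand): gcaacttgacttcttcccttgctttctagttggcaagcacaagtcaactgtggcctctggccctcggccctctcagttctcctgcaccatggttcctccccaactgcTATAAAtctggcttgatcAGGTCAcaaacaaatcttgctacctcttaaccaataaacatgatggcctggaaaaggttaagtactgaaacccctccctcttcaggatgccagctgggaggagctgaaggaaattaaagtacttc
The Lypd3 window held 2 matches to GGGCGG (GC box), a motif found in 32.7% of all 32851 windows of this length, and 2 to CACCC (KLF), found in 52% of them. The Ly6g6c window, which lies in an intron of a longer GENCODE transcript of the gene, held the TATA box motif, written TATAAA, 30 bases before the start, as 12.4% of windows did at some position. The printed Ly6c1 window held TATAAA and AGGTCA (part of a nuclear receptor element and not a whole one, in 14% of windows). The window of its other start held neither but had 3 CACCC matches. The Lypd5 window held 1 GC box and 5 CACCC matches. None of these windows matched TGANTCA (AP-1, in 6.75% of windows), the interferon response element core (in 2.98%) or TTCNNNGAA (STAT, in 7.02%). CACCC can lie inside longer GC-rich matches, and all motifs were read on both strands. A match is a description of these letters and not evidence of a bound factor.

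The deposited estimated counts summed to between 48791602 and 59818887 per library. Values are given below as CPM, counts scaled to a common library size by the trimmed mean of M values. The 3 libraries Thra1PV/+ library 1, WT library 1 and WT library 2 were the highest on a list of endometrial stroma genes (mean log2 CPM 8.02, 7.84 and 8.05, against 4.91 to 6.59 in the other 5). WT library 1 stood apart in smooth muscle genes, whose summed level was 13143 CPM there and 573 to 1146 CPM in the other WT libraries. All 8 smooth muscle genes were lower in mutant endometrium at an unadjusted p under 0.05, and none was called. The part of these differences in the results below was not tested, and counts without the 3 stroma-rich libraries are given with the other alternatives.

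The main comparison asked which members differed between mutant and WT endometrium. A gene was called when edgeR's quasi-likelihood test gave a fold change of at least 2 and a Benjamini-Hochberg adjusted p of at most 0.1 over all 18174 genes tested. Because the members were chosen with this contrast known, their differences are given as descriptions, without p-values. Lypd2, Lypd3 and Ly6d were called higher, 3 of the 9 tested members, where 0.924% of all tested genes were called higher and 0.0660% lower. All 6 tested epithelial members had every mutant library above every WT library, as did 3.55% of all tested genes, or 6.04% with either genotype on top. Nothing is read from these shares, because the members were chosen by the fold changes of this same contrast.

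Lypd2 encodes a short family protein of the anchored kind. Its level was 31.4, 60.1, 39.3 and 30.03 CPM in Thra1PV/+ libraries 1 to 4, and 0.210, 0.488, 0.637 and 0.649 CPM in WT libraries 1 to 4, from 1709 to 2963 counts against 11 to 32. The lowest mutant library was 46.3 times the highest WT library. The fitted log2 fold change was 6.34 (SE 0.44), an 80.9-fold difference. Here and below, SE is the log2 fold change without its sign, divided by the square root of the quasi-likelihood F statistic. It was derived from the test and not estimated by the fit. The mutant libraries lay within a factor of 2.002 of each other, the narrowest range among the epithelial members.

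Ly6d, a surface protein of squamous epithelium and of early B lineage cells, had the highest counts of the called members. It reached 154, 414, 389 and 222 CPM in the 4 mutant libraries and 4.06, 2.49, 6.92 and 8.52 CPM in WT. The groups did not overlap, and the log2 fold change was 5.75 (SE 0.54), or 53.6-fold. The WT libraries held 138 to 407 Ly6d counts each, so the gene was measured above a few counts in every WT library.

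Lypd3, the uPAR homologue C4.4A, had 7.90, 35.5, 31.2 and 14.6 CPM in mutant endometrium. In WT it had 0 counts in library 1 and 0.199, 0.597 and 0.126 CPM in libraries 2 to 4. Mutant libraries 2 and 3 were the highest and library 1 the lowest, yet all 4 were above WT. The log2 fold change was 6.58 (SE 1.06). The call was lost on leaving out Thra1PV/+ library 2 or 3, or WT library 2 or 4, with log2 fold changes between 6.22 and 7.67 over all 8 such fits.

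Psca had the largest fold change and the widest spread, and was not called. It was at 72.0, 729, 216 and 32.4 CPM in the mutant libraries, a 22.5-fold range. In WT it was at 0 counts in library 1 and at 0.469, 4.28 and 3.27 CPM in the others. The groups did not overlap, with a log2 fold change of 7.03 (SE 1.65). Without Thra1PV/+ library 2, which was far above the others, the log2 fold change was 5.74.

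The secreted member Slurp1 and the member Ly6g6c, whose gene lies in the major histocompatibility complex, were scarce and not called. Slurp1 had 39, 197, 96 and 27 counts in the mutant libraries (0.716, 3.997, 1.96 and 0.473 CPM), and 8 counts in WT library 3 with 0 in the other WT libraries. Its log2 fold change of 5.42 (SE 1.36) became 9.56 without WT library 3, since the remaining WT libraries then hold no count. Ly6g6c was at 0.955, 5.17, 4.92 and 1.96 CPM in mutant endometrium and at 0.0382, 0.0722, 0.358 and 0.356 CPM in WT, with a log2 fold change of 3.97 (SE 0.87). In both genes mutant library 2 was the highest. Lypd5 had 1, 6, 0 and 2 counts in the mutant libraries and 0, 1, 0 and 2 in WT, and a difference was not detectable at this depth.

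**Figure D1:**
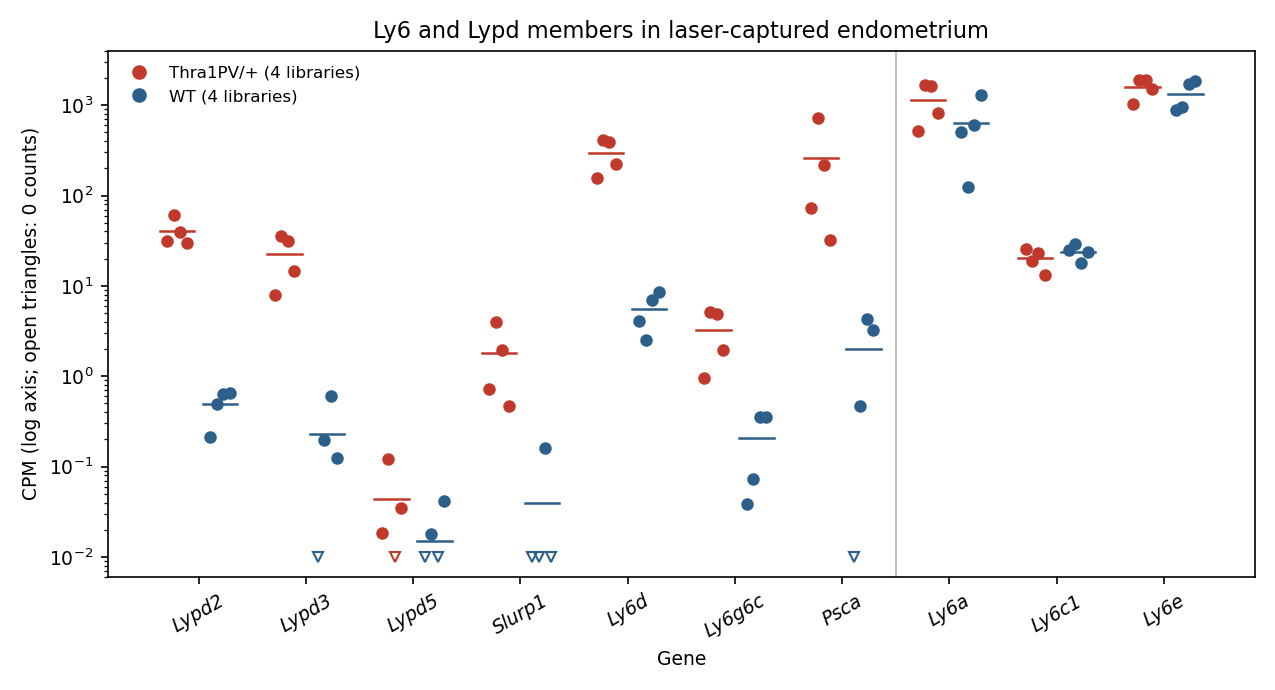
CPM of the 10 members on a log axis, with 1 point per library, horizontal bars for the mean of each genotype (red, Thra1PV/+; blue, WT; 4 libraries each) and open triangles for libraries with 0 counts. The mutant points of Lypd2, Lypd3, Slurp1, Ly6d, Ly6g6c and Psca lie above all WT points, from 0.473 CPM for the lowest Slurp1 library to 729 CPM for the highest Psca library, while Ly6a, Ly6c1 and Ly6e overlap.

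The remaining members, Ly6a, Ly6c1 and Ly6e, overlapped between genotypes and none was called. Ly6a (Sca-1) had 513, 1662, 1615 and 816 CPM in mutant and 511, 126, 598 and 1284 CPM in WT endometrium. Its WT libraries spanned a 10.2-fold range, with library 2 the lowest and library 4 above 2 of the 4 mutant libraries. The log2 fold change was 0.87 (SE 0.65), and it moved to 0.57 without WT library 2 and to 1.48 without WT library 4.

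Ly6c1, a surface protein of endothelium and of monocytes, was at 25.4, 18.7, 23.1 and 13.3 CPM in mutant and at 24.7, 28.9, 17.8 and 23.5 CPM in WT libraries. These ranges overlapped, and the log2 fold change was -0.24 (SE 0.24). Ly6e, a broadly expressed interferon-inducible member, was at 1019, 1878, 1881 and 1523 CPM in mutant and 875, 958, 1696 and 1840 CPM in WT libraries. The low libraries were the same 3 that were high in stroma genes, in both genotypes, and the log2 fold change was 0.23 (SE 0.31).

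Levels of different genes were compared per length, as the deposited TPM, which divide the counts by transcript length. In WT endometrium the order of the means was Ly6e (2002 TPM), Ly6a (1067 TPM), Ly6c1 (48.3 TPM), Ly6d (12.0 TPM), Psca (3.52 TPM), Lypd2 (2.11 TPM), Ly6g6c (0.439 TPM), Lypd3 (0.224 TPM), Slurp1 (0.0203 TPM) and Lypd5 (0.00789 TPM). In WT libraries the ranges of neighbours in this order overlapped, except that Ly6a (243 to 2298 TPM) was above Ly6c1 (34.1 to 63.0 TPM) and Ly6c1 was above Ly6d (5.34 to 18.6 TPM) in every library. In mutant endometrium Ly6e (2514 TPM) and Ly6a (2096 TPM) still led, followed by Ly6d (642 TPM), Psca (433 TPM) and Lypd2 (160 TPM). Ly6c1 (44.6 TPM), Lypd3 (18.7 TPM), Ly6g6c (5.40 TPM), Slurp1 (3.65 TPM) and Lypd5 (0.0216 TPM) came after them. The mutant ranges of Ly6d (413 to 863 TPM), Psca (57.7 to 1206 TPM) and Lypd2 (121 to 230 TPM) overlapped in part, so the order of Psca against its neighbours was not fixed, but all mutant Ly6d libraries were above all mutant Lypd2 libraries. Lypd2 passed Ly6c1, which it was below in every WT library.

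The other genes of the family were listed from general knowledge and not for how they moved, but earlier results of these data were known by then. Of 36 listed genes, 31 were in the table and 21 passed the count filter. None was called by edgeR's quasi-likelihood test, where 0.990% of all tested genes were called in either direction. At an unadjusted p under 0.05 there were 7, as against 9.77% of all tested genes. DESeq2 tested 25 of the listed genes and called 5: 2010109I03Rik, Cd177, Ly6c2, Ly6k and Pinlyp. Over all genes DESeq2 called 791 of the 29984 it tested. The median log2 fold change of the 21 genes was 0.30, against -0.05 over all tested genes, and 12 of 21 were positive.

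The family gene 2010109I03Rik, between the epithelial and the other members on chromosome 15, had the largest fold change of the 21. It was at 3.84, 10.7, 3.51 and 1.52 CPM in mutant and 0.267, 0.451, 0.895 and 0.607 CPM in WT libraries. The groups did not overlap, with a log2 fold change of 3.13 (SE 0.67; edgeR adjusted p = 0.116), and it was called, at an adjusted p of 0.0934, when Thra1PV/+ library 4 was left out. Its edgeR adjusted p over all 8 leave-one-out fits ran up to 0.254. Ly6k, a germ cell and tumour associated member, was at 2.75, 3.59, 2.88 and 0.718 CPM in mutant and at 0.0572, 0.144, 0.557 and 0.733 CPM in WT. Mutant library 4 fell inside the WT range, and the log2 fold change was 2.73 (SE 0.82; edgeR adjusted p = 0.313).

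Cd177, a neutrophil surface protein, was at 0.876 to 2.50 CPM in mutant and 0.0995 to 0.523 CPM in WT libraries, without overlap (log2 fold change 2.50, SE 0.60; edgeR adjusted p = 0.176). A list of monocyte, macrophage and neutrophil genes ran from 791 to 1713 CPM summed over 14 tested genes in mutant and from 525 to 941 CPM in WT libraries, all 14 were positive, and none was called. The 4 that passed an unadjusted p under 0.05 were Csf3r (log2 fold change 1.96), Cxcr2 (2.08), S100a8 (2.99) and S100a9 (3.26), with edgeR adjusted p-values of 0.381 to 0.509. Which cells carried these 4 transcripts was not tested. Ly6g, the defining neutrophil member of the family, was at 0.560 to 0.992 CPM in mutant and 0.0763 to 2.13 CPM in WT. Whether immune cells contributed to Cd177 was not tested.

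Ly6c2, the monocyte counterpart of Ly6c1, was at 5.93, 3.19, 18.9 and 14.2 CPM in mutant and 2.37 to 3.45 CPM in WT libraries. Only mutant libraries 1, 3 and 4 exceeded all WT libraries, and the log2 fold change was 1.83 (SE 0.53; edgeR adjusted p = 0.284). Because Ly6c1 and Ly6c2 share the run printed above, the split of reads between them is uncertain. Ly6i, which shares sequence with Ly6a, was at 3.38, 17.9, 35.2 and 6.09 CPM in mutant and 4.79, 0.289, 1.45 and 8.46 CPM in WT, overlapping (log2 fold change 2.06, SE 1.04; edgeR adjusted p = 0.582).

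Pinlyp, a secreted inhibitor of phospholipase A2, had 25, 21, 18 and 24 counts in the mutant and 0, 5, 1 and 7 in the WT libraries, without overlap (log2 fold change 2.67, SE 0.78; edgeR adjusted p = 0.290). Lypd6, a modulator of Wnt and nicotinic signalling, was the last of 4 non-overlapping genes, with a log2 fold change of 1.15 (SE 0.48; edgeR adjusted p = 0.493). These 4 of 21 were all higher in mutant. Of all tested genes, 3.55% were higher without overlap, or 6.04% with either genotype on top. Lypd8, an intestinal anti-bacterial member, was set by 1 library: WT library 3 held 2719 counts and the other WT libraries 4 to 63. Its log2 fold change was -0.22 (SE 1.78) and ranged from -0.67 to 4.61 when single libraries were left out. Plaur, the urokinase receptor, overlapped between genotypes (log2 fold change 0.61, SE 0.83; edgeR adjusted p = 0.872), as did Gpihbp1, the lipoprotein lipase anchor of capillaries (log2 fold change -0.42, SE 0.26; edgeR adjusted p = 0.662), and Cd59a, a complement inhibitor (log2 fold change -0.63, SE 0.36; edgeR adjusted p = 0.635).

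**Figure D2:**
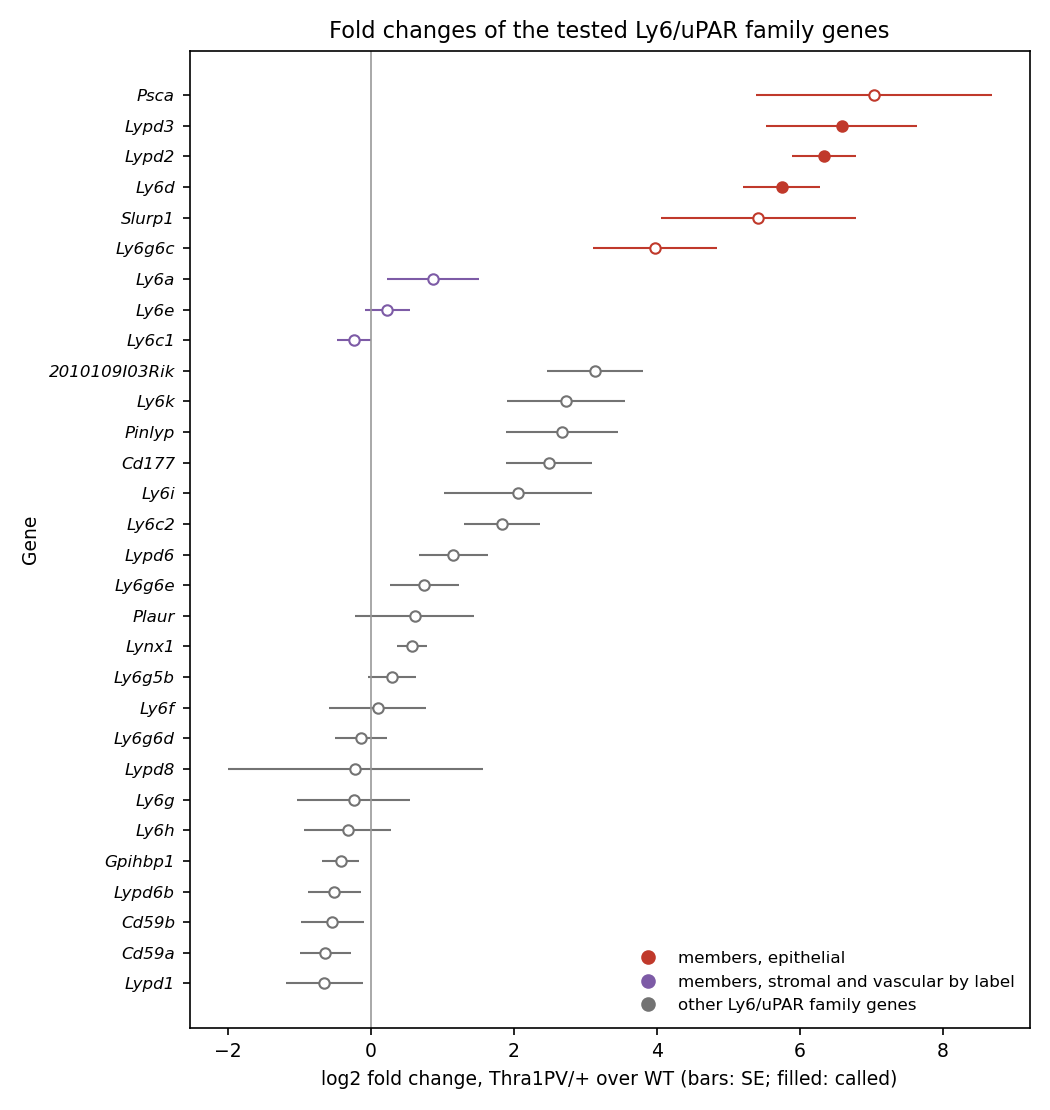
Log2 fold change (Thra1PV/+ over WT, n = 4 and 4) with its SE for the 9 tested members and the 21 other tested family genes, filled where called. Lypd3, Lypd2 and Ly6d are filled at 6.58, 6.34 and 5.75, and the highest of the other family genes, 2010109I03Rik, is at 3.13.

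In the mouse genome 7 of the members lie in one interval of chromosome 15 (chr15:74714839-75048830, GRCm38, 333992 bases). It holds 27 annotated genes, of which 18 are protein coding and 15 were tested. The order is Psca, Slurp1, Lypd2 and Ly6d at one end, and Ly6e, Ly6a and Ly6c1 at the other. Thus 4 of the 6 epithelial members with no overlap between genotypes lie close together, but the tested genes among them had smaller fold changes. Lynx1, a family gene between Lypd2 and Ly6d that modulates nicotinic receptors in neurons, was at 23.2 to 39.7 CPM in mutant and 17.6 to 27.1 CPM in WT (log2 fold change 0.58, SE 0.22; edgeR adjusted p = 0.434). Them6, between Psca and Slurp1, had a log2 fold change of 0.46 (SE 0.31; edgeR adjusted p = 0.688), and D730001G18Rik, next to Ly6d, one of 0.14 (SE 0.47; edgeR adjusted p = 0.957). Slurp2, next to Lypd2, had at most 4 counts in any library. Further along, the family genes Ly6k and 2010109I03Rik had the log2 fold changes of 2.73 and 3.13 given above. None of the 8 tested genes of the interval that are not members was called by edgeR, beside 0.990% of all tested genes. DESeq2 called Ly6k (adjusted p = 0.0154) and 2010109I03Rik (adjusted p = 5.7e-05), beside 791 of the 29984 genes it tested. Them6 and Slurp1 overlap on opposite strands, as do Ly6k and Gm17189, and whether counting used strand is not given in the sources used here. The members outside the interval were Lypd3 and Lypd5 on chromosome 7 (chr7:24636550-24641118 and chr7:24349196-24355109) and Ly6g6c on chromosome 17 (chr17:35065388-35070050).

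**Figure D3:**
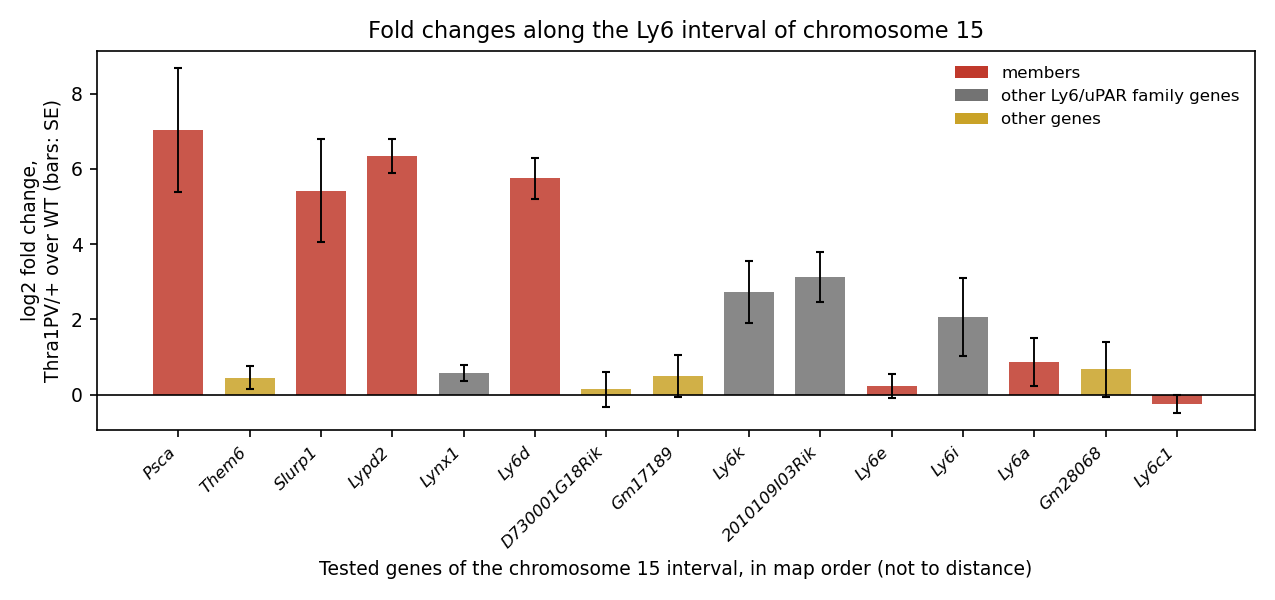
Log2 fold change (Thra1PV/+ over WT) with its SE for the 15 tested genes of the chromosome 15 interval in map order, with equal spacing. Psca, Slurp1, Lypd2 and Ly6d stand between 5.42 and 7.03, with Them6 at 0.46 and Lynx1 at 0.58 among them, and Ly6e, Ly6a and Ly6c1 at the other end lie between -0.24 and 0.87.

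The members were next set beside lists of cell type markers. Of 10 basal squamous genes, 5 were called higher (Krt5, Krt14, Krt15, Trp63 and Col17a1; list median log2 fold change 3.40), and of 24 tested suprabasal genes 9 were called higher (Krt13, Krt78, Ivl, Dsg3, Dsc3, Calml3, Grhl3, Evpl and Anxa8; list median 4.36). None was called among 15 simple uterine epithelial genes (median 0.07), 16 stromal genes (median -0.78), 15 endothelial genes (median -0.39) or 20 interferon-stimulated genes (median -0.05). Squamous markers were low but present in WT: the mean log2 CPM of the suprabasal list was -0.20, 0.26, 1.67 and 1.001 in WT libraries 1 to 4. WT libraries 3 and 4 were also higher than libraries 1 and 2 for Lypd2, Ly6d, Ly6g6c and Psca, but not for Lypd3 or Slurp1. Lypd3 was at 0.126 CPM in WT library 4 and 0.199 CPM in library 2, and Slurp1 had 0 counts in library 4. The mean log2 CPM of the 6 epithelial genes used below was likewise higher in WT libraries 3 and 4 (9.64 and 9.58) than in libraries 1 and 2 (8.21 and 8.55). Whether the amount of epithelium set these levels was not tested.

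Relative to the mean log2 CPM of the suprabasal list in the same library, the epithelial members were not alike; these values have no test. Lypd2 was at 1.04, 0.29, 0.28 and 1.04 in the mutant libraries and at -1.81, -1.19, -2.24 and -1.54 in WT, a difference of means of 2.36. Lypd3 differed by 2.83, Ly6d by 1.85 and Psca by 3.65 on the same scale. For Lypd2, Lypd3, Ly6d and Psca all 4 mutant libraries were above all WT libraries in this relative measure. Slurp1 differed by 0.59 and Ly6g6c by -0.115, and their genotypes overlapped. Against the basal list only Lypd2 and Lypd3 kept all mutant above all WT libraries: mutant library 1 of Ly6d (-0.04) was below WT library 1 (0.06), and mutant library 4 of Psca (-2.54) was below WT libraries 3 and 4 (-2.44 and -2.15). The differences of means from the basal list were 2.20 for Lypd2, 2.67 for Lypd3, 1.69 for Ly6d, 3.49 for Psca, 0.43 for Slurp1 and -0.28 for Ly6g6c. Libraries with 0 counts enter these values through the prior count of 2, which holds for Lypd3, Psca and Slurp1 in WT.

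**Figure D4:**
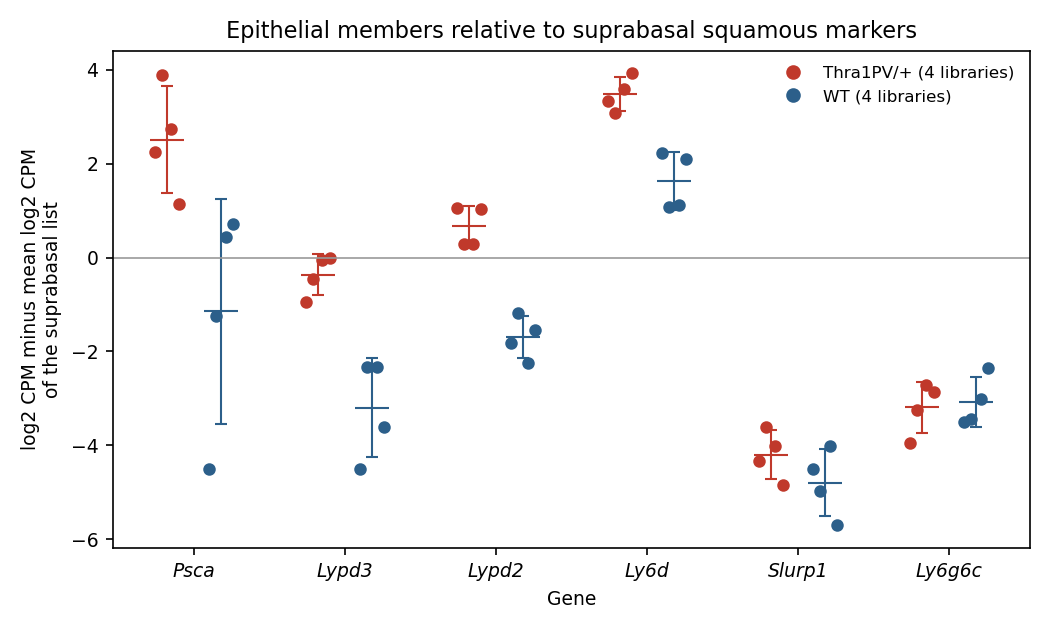
Log2 CPM of 6 epithelial members minus the mean log2 CPM of 24 suprabasal squamous genes in the same library, with points for libraries and bars for mean ± SD (red, Thra1PV/+; blue, WT; n = 4 each). Lypd2 lies at 0.28 to 1.04 in mutant and -2.24 to -1.19 in WT libraries, while the points of Slurp1 and Ly6g6c overlap between genotypes.

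Among the mutant libraries the spread of the epithelial members around the squamous markers differed in size. Over the 4 mutant libraries Lypd2 had an SD of 0.37 against the basal list and 0.44 against the suprabasal list, beside 0.46 for Lypd2 itself. Ly6d had SDs of 0.41 and 0.36, beside 0.68 for Ly6d itself. Slurp1 varied less against the suprabasal list (SD 0.52) than against the basal list (SD 1.16), beside 1.35 for Slurp1 itself. Lypd3 did likewise (SD 0.44 and 0.74, beside 1.01 for itself), as did Ly6g6c (SD 0.55 and 0.87, beside 1.15). Psca varied widely against both (SD 1.14 and 1.78), though less than by itself (SD 1.95). These are descriptions over 4 libraries with no test.

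The label of stromal and vascular genes held unevenly. The level of Ly6c1 was similar to the mean of the endothelial list, with a difference in log2 CPM of 0.05 (SD 0.58) in mutant and -0.08 (SD 0.36) in WT libraries. That distance varied more than Ly6c1 itself (SD 0.41 and 0.29). The endothelial list ranged more widely than Ly6c1, from 3.44 to 4.95 in mutant and 3.99 to 5.16 in WT libraries. Among the mutant libraries both were highest in library 1, and among the WT libraries both were lowest in library 3. Their other extremes fell in different libraries, and whether they move together was not tested. Ly6e was at a nearly constant distance from the mean of 6 epithelial genes (Krt8, Krt18, Krt19, Krt7, Epcam and Cdh1), a reference added after the data were seen. That distance was 1.51 (SD 0.16) in mutant and 1.32 (SD 0.20) in WT libraries, whereas its distance from the stromal list had SDs of 1.70 and 1.48. The spread of Ly6e itself was 0.42 and 0.55. Across these libraries Ly6e thus kept a steadier distance from epithelial than from stromal markers, and it is not described here as a stromal gene.

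Ly6a also did not move with the stromal list, from which its distance had SDs of 2.08 in mutant and 2.17 in WT libraries. Its distance from the mean of 20 interferon-stimulated genes was 4.28, 4.26, 4.38 and 4.52 in the mutant libraries (SD 0.12, against 0.82 for Ly6a itself) and 3.32, 2.98, 2.86 and 4.02 in WT (SD 0.52, against 1.40). All mutant values of this distance were above all WT values, with a difference of means of 1.06. The interferon-stimulated list itself overlapped between genotypes, at 884 to 2471 CPM summed in mutant and 590 to 2616 CPM in WT libraries, and 0 of its 20 genes passed even the unadjusted threshold. Both Ly6a and this list were lowest in WT library 2. A steady distance from this list was not particular to Ly6a. That of the squamous member Ly6d had SDs of 0.18 in mutant and 0.45 in WT libraries. For Lypd3 the SD was 0.22 in mutant but 1.93 in WT libraries. Whether Ly6a follows interferon was not tested.

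**Figure D5:**
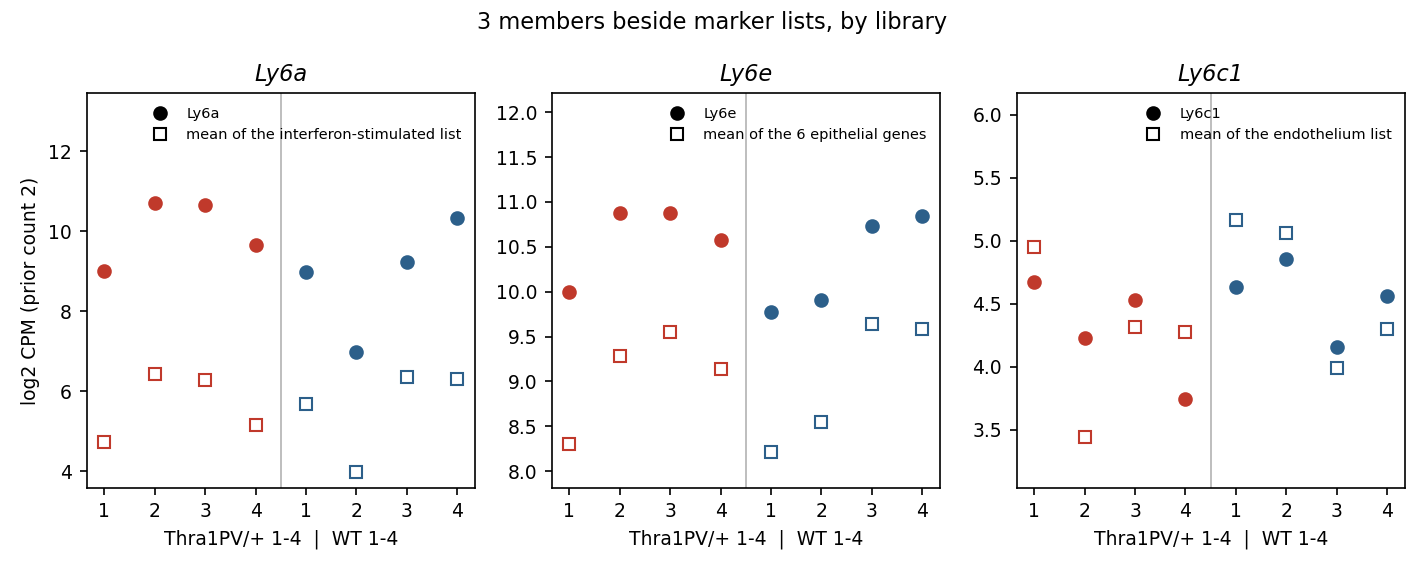
Log2 CPM of Ly6a, Ly6e and Ly6c1 (filled circles) beside the mean log2 CPM of 20 interferon-stimulated genes, 6 epithelial genes and 15 endothelial genes (open squares) in each library (red, Thra1PV/+; blue, WT). Ly6a stays 4.26 to 4.52 above its list in mutant libraries and 2.86 to 4.02 in WT, and Ly6e keeps a distance of 1.51 and 1.32 on average. The distance of Ly6c1 from the endothelial mean varies more (SD 0.58 and 0.36) than Ly6c1 itself (SD 0.41 and 0.29). The endothelial mean also ranges more widely than Ly6c1 within each genotype.

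SLURP1 acts on nicotinic acetylcholine receptors, so their subunits were read as well. Only 5 of 16 passed the count filter (Chrna1, Chrna4, Chrnb1, Chrnb2 and Chrnb4), and none was called or passed the unadjusted threshold. The most abundant, Chrnb1, averaged 9.16 CPM in mutant and 9.18 CPM in WT endometrium (log2 fold change -0.0027, SE 0.30; edgeR adjusted p = 0.999). Chrna7, the subunit best known as a SLURP1 target, did not pass the filter.

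The genes most like each of 4 members were found by the root mean square difference of log2 CPM over the 8 libraries, each gene centred on its own mean, among 13369 genes. For Lypd2 they were Aqp3 (0.23), a water and glycerol channel, Kcnj15 (0.28), a potassium channel, Ces2f (0.44), Lgals7 (0.49), galectin-7 of squamous epithelia, and Tfap2a (0.49), the transcription factor AP-2α. For Ly6d they were Aqp3 (0.47), S100a14 (0.56), Lypd2 (0.59), Rhov (0.64) and Tfap2a (0.64). For Slurp1 they were Dsg3 (0.76), the desmosomal cadherin desmoglein 3, Lipk (0.77), Rhov (0.77), Ifi202b (0.81) and Liph (0.86). For Ly6a they were Nupr1 (0.28), Cdkn1a (0.31), the cell cycle inhibitor p21, 1700066B19Rik (0.34), Tnfrsf23 (0.35) and Tnfsf9 (0.35). Among the members themselves the closest pair was Lypd2 and Ly6d (0.59), followed by Ly6c1 and Ly6e (0.68) and Ly6a and Ly6e (0.83). Centring over both genotypes leaves the genotype difference in this measure, so genes with similar fold changes come out close. The genes nearest Lypd2 had log2 fold changes of 5.73 to 6.77. A small value therefore does not show that genes vary together within a genotype.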

How the data were processed

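The data are RNA-seq of endometrium isolated by laser capture in 4 Thra1PV/+ and 4 WT libraries. Per the labels and the methods of the study, the authors made stranded mRNA libraries for paired-end sequencing, trimmed them with Trimmomatic and quantified them by Salmon on mm10; the annotation release is not given in the sources used here. The authors deposited estimated counts per gene, summarized from the transcript counts of Salmon and not scaled for depth. The authors also deposited TPM, which were the same at each rank in all 8 libraries to within 0.291 TPM and were therefore treated as quantile-normalized. Among the TPM columns, 1 matched no sample and was left out.

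The members and the gene lists were chosen with earlier results of these data known. Estimated counts were rounded and fitted with edgeR 4.0.16 (limma 3.58.1, R 4.3.3): filterByExpr (minimum count 10, minimum total 15) left 18174 of 52325 genes, TMM scaling, quasi-likelihood test of genotype over all 8 libraries, Benjamini-Hochberg over all tested genes, called at a fold change of 2 and an adjusted p of 0.1. The test was run on simulated data first. Log2 CPM used a prior count of 2. DESeq2 1.42.0, which the authors used, limma on log2(TPM + 1) and log2(TPM + 0.1), other scalings, filters and thresholds, and leaving out single libraries were alternatives. The study gives 4 mice per genotype for these libraries, and the labels do not tie replicate numbers to shared litters or batches. Rows with no gene symbol held at most 0.00897% of a library's counts.

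Named genes were all members, any tested gene of the other family list, the called genes of each other list or its most abundant up to 4, and the 5 genes most like Lypd2, Ly6d, Slurp1 and Ly6a. Positions, transcripts and 31-base words are from GENCODE M21 (GRCm38), promoters from RefSeq (GRCm38.p6).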

Additional observations from a re-analysis of the deposited data

Results flagged for a closer look

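Slurp1 in WT library 3 was far from the other WT libraries, at -2.34 log2 CPM against -4.70 in all 3 others, which held 0 counts and so lie at the value set by the prior count. The library held 8 Slurp1 counts. Of 36 groups of 4 libraries examined in this way 1 was flagged, where chance alone flags about 1.8.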

How the results depend on the processing

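Lypd2 and Ly6d were called in all 18 fits, with log2 fold changes of 5.73 to 6.51 and 5.51 to 6.03. Lypd3 was called in 13 of 17, Psca and Ly6g6c in 3 and Slurp1 in 2; no member's log2 fold change changed sign in any fit. Of the members, DESeq2 called 6 of the 10 it tested, beside 791 of all 29984 genes it tested. Limma on log2(TPM + 0.1) called 5, beside 225 of all 18174 genes tested. Nothing is read from these counts, because the members were chosen by the fold changes of this same contrast. The main fit called 3, and the fits with single libraries left out called 2 to 3. Of the other family genes DESeq2 called 5, upper-quartile scaling 1, library size alone 1, limma on log2(TPM + 0.1) 1 and the unadjusted threshold 7 (main 0; 0 to 1 with single libraries left out). Over all genes the count of 180 became 791 with DESeq2 (568 higher, 223 lower), 81 with at least 10 counts in every library, 119 at an adjusted p of 0.05 and 1775 at an unadjusted p under 0.05 (917 higher, 858 lower), and 81 to 167 with single libraries left out: 116 without Thra1PV/+ library 2, 81 without library 3 and 114 without WT library 4. The cause of these shifts was not tested.

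Same-numbered libraries deviated from their group means with correlations of 0.269, -0.436, 0.34 and -0.159. These values cannot show whether the numbers pair the libraries, because tissue content also differs between libraries, and the labels leave it unknown. With a replicate block 82 genes, 3 members and 0 other family genes were called. Without the 3 libraries highest on the stroma list, an alternative added after the data were seen, 204 genes and 4 members were called, the fourth being Ly6g6c.

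Relative to the 6 epithelial genes, a reference also added after the data were seen, the differences in log2 CPM became 6.21 for Lypd2, 6.68 for Lypd3, 4.45 for Slurp1, 5.70 for Ly6d, 3.74 for Ly6g6c, 7.50 for Psca, 1.06 for Ly6a, -0.33 for Ly6c1 and 0.20 for Ly6e, because these genes, unlike the squamous lists, differ little between genotypes. Low counts limit Slurp1, Ly6g6c and Lypd5.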
